A study of Canis lupus familiaris with 8 samples.

Results

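The miR-106b-25 and miR-106a-363 clusters are duplicated relatives of the miR-17-92 cluster. Their 6 members considered here are cfa-miR-106b, cfa-miR-93 and cfa-miR-25 in the first and cfa-miR-106a, cfa-miR-20b and cfa-miR-363 in the second. They were found by name among the 452 mature miRNAs of the deposited table, and all 6 were present, each with 1 locus. A value above the table's floor was found for 5 of them, which were tested, while miR-106a was at the floor in all 8 libraries. The libraries hold small RNA from exosomes, the small vesicles that cells release, in serum-free medium conditioned by dog mammary cells. Per the labels, 5 libraries came from canine mammary tumour (CMT) lines of carcinoma cells, numbered CMT-12, CMT-27, CMT-28, CMT-47 and CMT-119, and 3 from normal canine mammary epithelial cells, CMEC1 to CMEC3, named there as biological replicates. No library was from treated cells. Medium of the first 24 hours was discarded and that of the next 48 hours was taken on day 3.

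Each cluster is transcribed as 1 precursor from which several miRNAs are cut. In human and mouse the miR-106b-25 cluster lies in an intron of MCM7, a gene of the helicase that opens DNA for replication, and is described as active in dividing cells. Its members are known to repress the cell cycle inhibitor CDKN1A and the pro-apoptotic factor BIM, and to weaken the response to TGF-beta. The X-linked miR-106a-363 cluster is less studied and is known from embryonic cells and from leukaemias of mice. By their seeds, the bases that pair with targets, miR-106b, miR-93, miR-106a and miR-20b belong with miR-17 and miR-20a of the miR-17-92 cluster, and miR-25 and miR-363 belong with miR-92a and miR-32.

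In canFam3, as the table gives positions, miR-106b lies on chromosome 6 from 9498558 to 9498578, miR-93 from 9498780 to 9498802 and miR-25 from 9499030 to 9499051, all on the plus strand and within 494 bases. All 6 members matched RefSeq's dog annotation (assembly UU_Cfam_GSD_1.0) by gene ID, and there the hairpins of these 3 lie inside the annotated MCM7 gene. Whether they fall in its exons or introns was not analysed here. On chromosome X and the minus strand, miR-106a lies from 104896553 to 104896574, miR-20b from 104896133 to 104896154 and miR-363 from 104895657 to 104895679, within 918 bases. No annotated gene encloses these 3 hairpins. The mature loci are 21 to 23 bases long, so levels are set side by side per miRNA without a length correction.

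The values are the authors' normalised signal, linear, with a floor of exactly 1. Above the floor, values were whole multiples of 1 step per library, so reads per value could be recovered. Recovered reads ranged from 81138 in CMT-12 and 85906 in CMEC2 to 1405893 in CMT-27. Intervals on reads reflect only the error of counting, because reads carry no molecular identifiers and are not independent molecules. Nothing in the labels ties the CMEC samples to separate dogs, and the p-values then describe only how these samples vary. The epithelial label was checked on 7 epithelial miRNAs: 6 were above the floor in CMT-12 and CMT-27, and 1 to 4 in the other libraries. In those others miR-429 and miR-200b were at the floor, and the summed signal of the list was at most 48.2, against 16308 for CMT-27 and 4004 for CMT-12.

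miR-25 was the most abundant member in 5 of the 8 libraries and was above the floor in all of them. From high to low, its signal was 2777 in CMT-27, 719 in CMT-12, 541 for CMT-47, 482 for CMT-119 and 155 in CMT-28 among the lines, and 932 in CMEC3, 683 in CMEC2 and 283 in CMEC1. The groups overlapped throughout, since only CMT-27 exceeded CMEC3 and only CMT-28 was below CMEC1. It ranked between the 25th and the 55th place among the miRNAs of a library. Each value rests on at least 241 reads.

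miR-93, a miR-17 seed member cut from the same precursor, differed more between libraries. CMT-27 had 1718, CMT-28 had 262, CMT-12 had 237, CMT-119 had 188 and CMT-47 had 168. In the normal samples it was at 243 in CMEC1, 39.7 in CMEC2 and 76.2 in CMEC3. CMEC2 and CMEC3 were thus below every CMT line, while CMEC1 lay among the lines, above CMT-12, CMT-47 and CMT-119. The value of CMEC2 rests on 14 reads (exact Poisson 95% interval 7.65 to 23.5) and that of CMEC3 on 55 (41.4 to 71.6).

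miR-106b, the first miRNA of the precursor and a close relative of miR-93, was the least abundant detected member of its cluster. Its signal was 306 in CMT-27, 34.8 in CMT-12, 29.4 in CMT-28, 14.3 in CMT-119 and 6.94 in CMT-47. CMEC1 had 9.79, and CMEC2 and CMEC3 were at the floor. All 5 CMT lines were therefore above CMEC2 and CMEC3, and CMT-47 was below CMEC1. That last order is not resolved, with 10 reads in CMT-47 (interval 4.80 to 18.4) and 9 in CMEC1 (4.12 to 17.1). A count of 0 in CMEC2 allows a signal of up to 8.50, the worth of 3 reads, which is above the value of CMT-47.

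**Figure D1:**
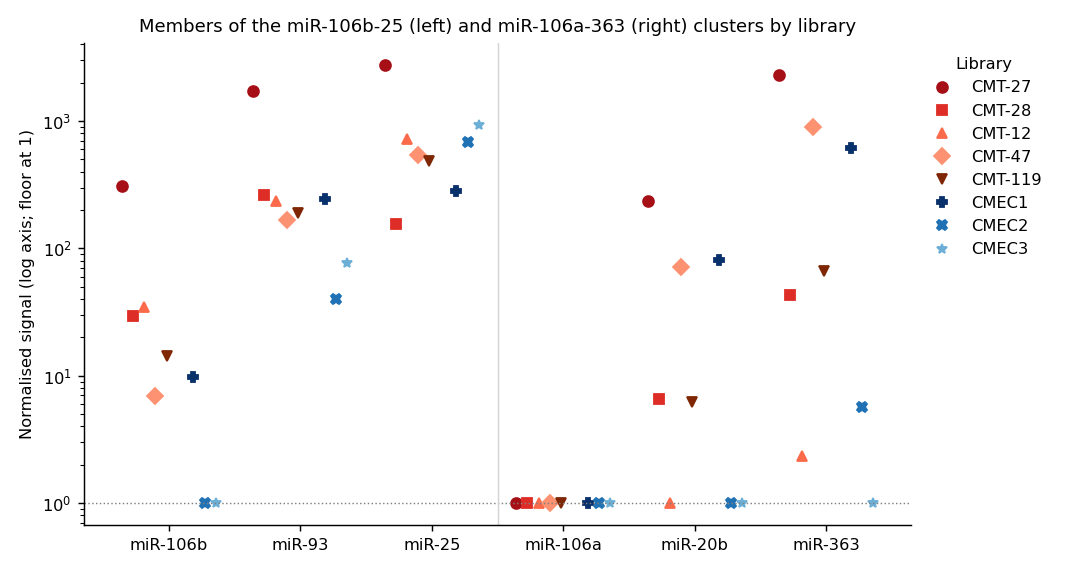
Normalised signal (log axis) of the 6 members in each of the 8 libraries, 1 point per library, with CMT lines in red and brown and CMEC samples in blue; the dotted line is the floor of 1. miR-106a sits at the floor throughout, miR-25 runs from 155 to 2777, and miR-363 runs from the floor in CMEC3 to 2312 in CMT-27.

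miR-363, which shares the seed of miR-25, was the more abundant of the 2 detected members of the X-linked cluster and ran over the widest range on the log2 scale of all 5 detected members. It was at 2312 in CMT-27, 900 in CMT-47, 66.2 in CMT-119, 42.9 in CMT-28 and 2.32 in CMT-12. Among the normal samples it was at 618 in CMEC1, 5.67 in CMEC2 and the floor in CMEC3. High levels thus occurred in both groups, in CMT-27, CMT-47 and CMEC1, and so did levels at or near the floor, in CMT-12, CMEC2 and CMEC3. The value of CMT-12 is 1 read and that of CMEC2 is 2 reads, whereas CMT-27 had 3343, CMT-47 1297 and CMEC1 568.

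miR-20b, of the miR-17 seed, was lower than miR-363 in every library where it was above the floor, and was highest in the same 3 libraries. It was at 236 in CMT-27, 80.5 in CMEC1, 71.5 in CMT-47, 6.57 in CMT-28 and 6.27 in CMT-119, and at the floor in CMT-12, CMEC2 and CMEC3. The 3 libraries with no miR-20b are those with at most 2 reads of miR-363. Of the 5 libraries with both miRNAs, the ratio of miR-363 to miR-20b was 12.6 in CMT-47, 10.6 in CMT-119, 9.80 in CMT-27, 7.68 in CMEC1 and 6.53 in CMT-28. The ratio thus stayed between 6.53 and 12.6 while miR-363 itself ran from 42.9 to 2312 in those libraries. For CMT-119 and CMT-28 the ratio is loosely measured, because miR-20b had 7 reads (interval 2.81 to 14.4) and 17 reads (9.90 to 27.2) there.

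miR-106a, at the other end of the X-linked cluster, had no value above the floor. In CMT-27, where miR-20b had 341 reads, a value at the floor means at most 1 read. In CMT-12, with the fewest recovered reads, a count of 0 allows up to 37.0 ppm (share of the library's summed signal, scaled to 1000000). The deposited values of miR-17, its close relative on chromosome 22, were also low, at 17.98 in CMT-27, 1.09 in CMEC1, 2.77 in CMEC3 and the floor elsewhere. miR-17, miR-20a, miR-20b, miR-93, miR-106a and miR-106b share a seed, and their full sequences were not compared here. How reads that fit several of them were assigned is not given in the sources used here, so the split of signal among them is uncertain.

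The X-linked cluster also encodes copies of miR-18b, miR-19b and miR-92a. miR-18b had 8.30 in CMT-27, 1.39 in CMT-47 and was at the floor in the other 6 libraries. miR-19b and miR-92a have a further locus on chromosome 22, in the miR-17-92 cluster, and their X loci had 100% to 105% and 88.0% to 99.2% of the signal of those loci. The paired loci therefore carry largely the same reads. Their signal cannot be assigned to either cluster: in CMT-12 the X locus of miR-92a was at 3218 while miR-20b was at the floor.

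Shares of a library's summed signal remove the scaling factor of the library, but they depend on its leading miRNA, miR-21. miR-21 held 248897 ppm in CMT-12, 279771 in CMEC2 and 325629 in CMEC3. In the other libraries it held from 496096 (CMT-27) to 631326 (CMT-28). The members of the miR-106b-25 cluster together held 5263 ppm in CMT-12, 4936 in CMT-27, 1414 in CMT-119, 1365 in CMT-28 and 987 in CMT-47, and 2968 in CMEC2, 2098 in CMEC3 and 1217 in CMEC1. The CMT lines averaged 2793 ± 2115 (SD, n = 5) and the CMEC samples 2094 ± 876 (SD, n = 3), with overlap. The members of the miR-106a-363 cluster held 2620 ppm in CMT-27, 1340 in CMT-47, 151 in CMT-28, 149.9 in CMT-119 and 12.3 in CMT-12, and 1588 in CMEC1, 23.3 in CMEC2 and 0 in CMEC3. The SD exceeded the mean in both groups, at 855 ± 1124 in CMT (n = 5) and 537 ± 910 in CMEC (n = 3). CMT-12, with the largest share of the miR-106b-25 cluster, had 1 read of the X-linked cluster.

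**Figure D2:**
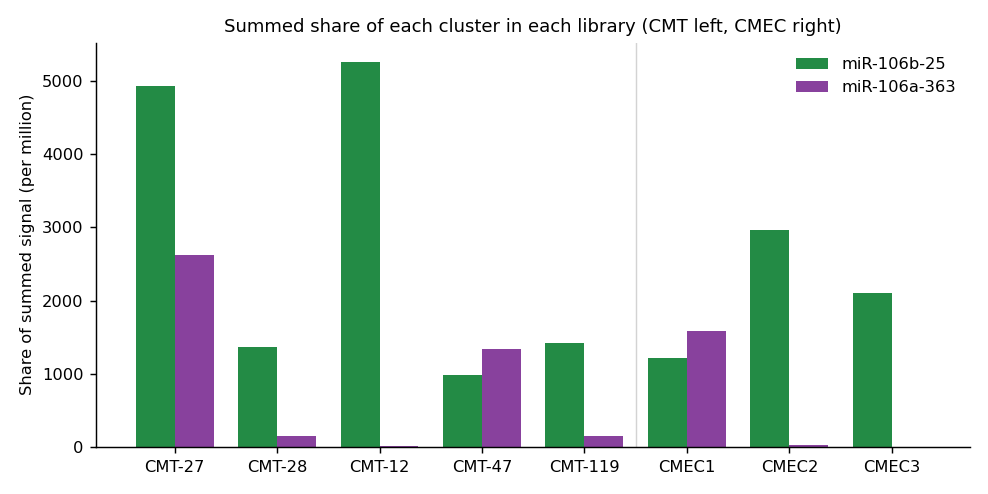
Summed share of the detected members of each cluster in each library, in parts ppm (bars, linear axis from 0; CMT lines on the left, CMEC samples on the right). The miR-106b-25 cluster runs from 987 in CMT-47 to 5263 in CMT-12, and the miR-106a-363 cluster exceeds it in CMT-47 and CMEC1.

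Shares were tested per miRNA with an exact permutation test over the 56 ways to draw 5 of 8 libraries. miR-106b averaged 126 ± 126 ppm over the CMT lines (SD, n = 5) and 7.42 ± 12.9 over the CMEC samples (SD, n = 3; two-sided exact permutation p = 0.143). miR-93 held 889 ± 631 in CMT and 291 ± 226 in CMEC (exact permutation p = 0.214). miR-25, by contrast, held 1778 ± 1476 in CMT and 1796 ± 1088 in CMEC (exact permutation p = 1). For miR-20b and miR-363 the exact permutation p was 0.875 and 0.679. After adjustment over the 193 tested miRNAs the 5 members had exact permutation p-values of 0.830 to 1. The smallest p this design allows is 0.0179, and at least 69 miRNAs would need it for any call, so the count of 0 calls by this test decides nothing (0% were called and 12 of the 193, or 6.22%, had an unadjusted p under 0.05, none of them a member).

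On the deposited scale, log2(signal + 1) was compared by limma across 193 miRNAs. No member passed the Benjamini-Hochberg threshold of 0.05, and neither did any other miRNA (0% called, and 0 with limma-voom on recovered reads; 10.9% had an unadjusted p under 0.05, as did 1 of the 5 members). The difference of CMT minus CMEC was 3.24 ± 1.36 for miR-106b (SE, 5 against 3 libraries; limma adjusted p = 0.385). Its unadjusted limma p was 0.0291, the 14th smallest of the 193. miR-93 was at 1.81 ± 1.11 (limma adjusted p = 0.537) and miR-25 at 0.10 ± 1.03 (limma adjusted p = 0.956). For miR-25 the 95% interval ran from -2.09 to 2.29, which includes the difference of miR-93. In the X-linked cluster miR-20b was at 1.39 ± 1.67 (limma adjusted p = 0.763) and miR-363 at 2.51 ± 2.05 (limma adjusted p = 0.604).

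All 5 differences were positive, as were 73.1% of all tested miRNAs, and 4 of the 5 were above the median of all tested miRNAs, which was 0.75. The median of the 3 tested members of the miR-106b-25 cluster was 1.81 and that of the 2 tested members of the miR-106a-363 cluster 1.95. For none of the 5 did the groups part without overlap, which 7.77% of the tested miRNAs did with CMT higher and 1.55% with CMT lower. After median centring, which sets the libraries to a common median and moves the median of all miRNAs to -0.09, miR-106b was at 2.41, miR-93 at 0.98, miR-20b at 0.55 and miR-363 at 1.68. miR-25 then turned to -0.74, and it was at -0.80 after quantile normalisation. The sign of miR-25 therefore depended on the scaling.

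The differences depended on single libraries. Without CMEC1, miR-363 was at 4.98, miR-20b at 3.17, miR-93 at 2.52 and miR-106b at 4.06, with limma adjusted p-values of 0.263 to 0.383. Without CMT-27, miR-363 was at 1.43, miR-20b at 0.46, miR-93 at 1.21 and miR-106b at 2.44. The share of miR-363 was then lower in CMT than in CMEC by 95.6 ppm, against 304 higher with all libraries. Without CMEC3 the difference of miR-363 was 0.84, and without CMT-12, the line with 1 read of it, 3.79.

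**Figure D3:**
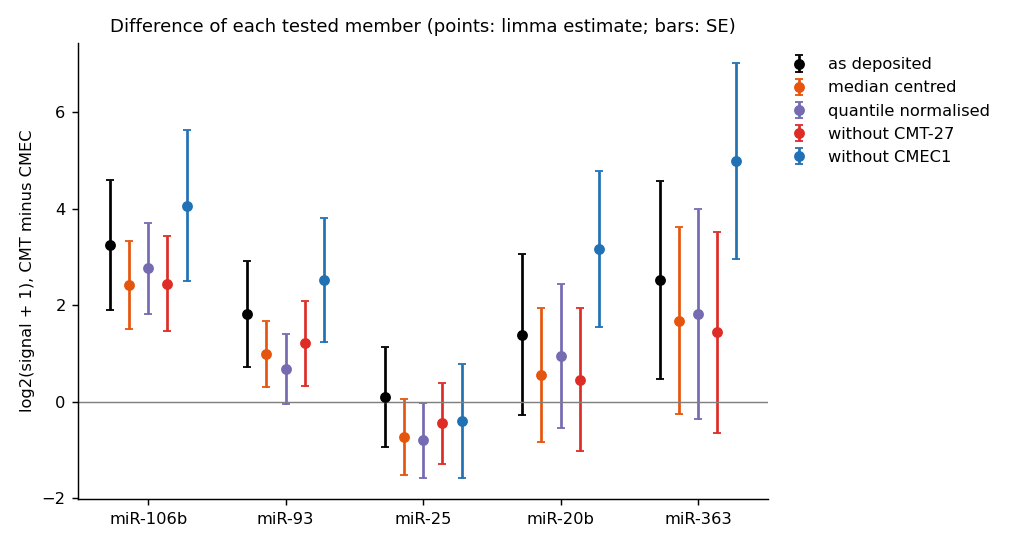
Difference in log2(signal + 1), CMT minus CMEC, of the 5 tested members (points, limma estimates; bars, SE), as deposited, after 2 rescalings and without CMT-27 or CMEC1. miR-25 sits between -0.80 and 0.10, and miR-363 between 1.43 without CMT-27 and 4.98 without CMEC1.

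Ratios between members of 1 precursor, which need no scaling, also differed between libraries. The ratio of miR-25 to miR-93 was 3.22 in CMT-47, 3.04 in CMT-12, 2.56 in CMT-119, 1.62 in CMT-27 and 0.589 in CMT-28, and 17.2 in CMEC2, 12.2 in CMEC3 and 1.17 in CMEC1. CMEC2 and CMEC3 thus stood far above the other 6 libraries, and CMEC1 lay within the CMT range. On the log2 scale the ratio averaged 0.92 ± 1.02 over the CMT lines (SD, n = 5) and 2.65 ± 2.11 over the CMEC samples (SD, n = 3). miR-93 exceeded miR-106b by 5.60-fold in CMT-27 to 24.2-fold in CMT-47 among the lines and by 24.8-fold in CMEC1. With miR-106b at the floor, the ratio was at least 18.3-fold in CMEC3 and at least 4.67-fold in CMEC2. The bound of CMEC2 is below the ratio of every CMT line and so does not place that sample.

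CMEC2 and CMEC3 also had high signal of mesenchymal and smooth-muscle markers (miR-143, miR-145, miR-199 and miR-214), of which 3 or 4 of 4 were above the floor in each library. Their sum was 185715 ppm in CMEC2, 130361 in CMEC3 and 16847 in CMEC1, and ran from 152 in CMT-27 to 139198 in CMT-47. Most of this sum was miR-143 in each library. Its signal was 43416.5 of a summed 45201 in CMEC2, 61468 of 62635 in CMEC3 and 100702 of 100904 in CMT-47. The sum thus mainly follows 1 miRNA. Single markers did not all follow: miR-214 was at 65.2 in CMEC2 and 51.3 in CMEC3 and at most 5.02 elsewhere, but miR-199 was at 1616 in CMT-28 against 1623 in CMEC2. miR-145 was at 190 in CMT-47 and 180 in CMT-28 against 96.3 in CMEC2 and 19.4 in CMEC3. miR-206, a skeletal muscle miRNA of the liver and muscle list, was at 2570 in CMEC2, 298 in CMEC3 and the floor in the other 6 libraries. The rest of that list was mixed. Its miR-1 was likewise highest in CMEC2 (1060) and CMEC3 (805), with at most 352 elsewhere. By contrast, miR-133a, low throughout, peaked in CMEC1 (8.70), while CMEC3 had 2.77 and CMEC2 had 5.67. The liver miRNA miR-122 reached only 5.67 in CMEC2 and 161 in CMEC3, below CMT-12, CMT-47 and CMT-119. CMT-47, with a sum between those of CMEC2 and CMEC3, had a miR-25 to miR-93 ratio of 3.22. The part of these markers in the ratio was not tested. Fewer cells of a type and less RNA per cell cannot be told apart in such pooled medium.

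**Figure D4:**
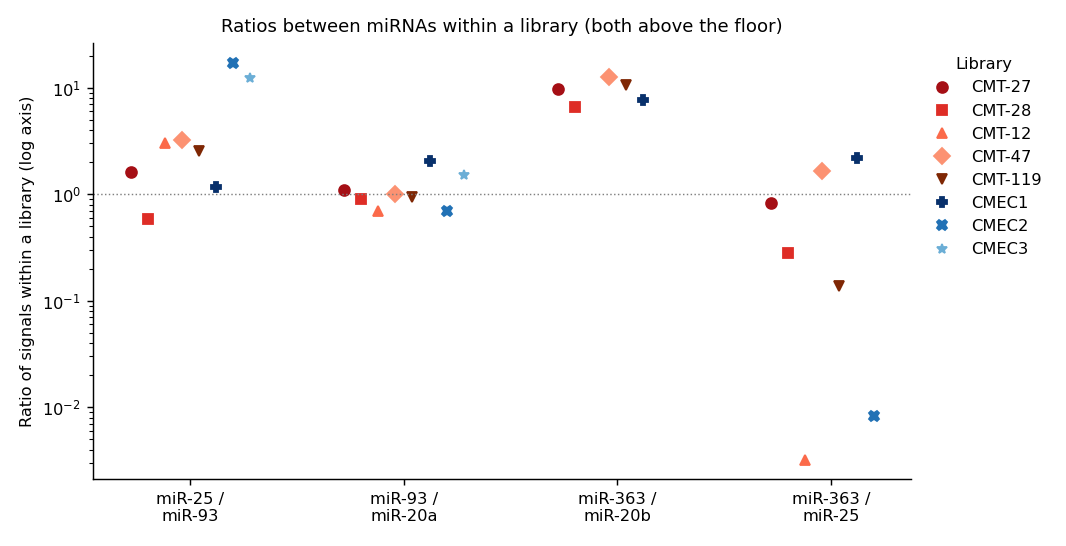
Ratio of the signals of paired miRNAs within a library (log axis), shown where both were above the floor, 1 point per library with CMT lines in red and brown and CMEC samples in blue. The ratio of miR-25 to miR-93 is 17.2 in CMEC2 and 12.2 in CMEC3 and at most 3.22 elsewhere, and that of miR-363 to miR-20b stays between 6.53 and 12.6.

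Within the seed families, the clusters gave between 41.2% and 73.6% of the miR-17 seed signal of a library. miR-93 alone gave 43.0% ± 3.26 of it over the CMT lines (SD, n = 5) and 51.3% ± 9.20 over the CMEC samples (SD, n = 3), and miR-20a of the miR-17-92 cluster gave most of the rest. miR-93 and miR-20a stayed close in level, with a ratio of 0.689 in CMT-12 to 2.05 in CMEC1, although both ran over more than an order of magnitude between libraries. miR-20b contributed 17.8% in CMEC1, 17.3% in CMT-47 and 6.16% in CMT-27, and at most 1.54% elsewhere. The summed miR-17 seed signal was 2083 ± 1480 ppm over the CMT lines (SD, n = 5) and 564 ± 407 over the CMEC samples (SD, n = 3), and CMT-47, with 570, and CMT-119, with 840, were below CMEC1, with 1029.

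The miR-25 seed family was more mixed. miR-92a gave from 41.8% of it (CMT-27) to 82.5% (CMT-12), and miR-25 gave 48.7% in CMEC2 and 52.5% in CMEC3 against 13.3% to 31.3% in the CMT lines and 11.9% in CMEC1. miR-363 gave 26.1% in CMT-27, 27.9% in CMT-47 and 26.1% in CMEC1, and at most 3.68% in the other 5 libraries. In CMT-47 and CMEC1 the ratio of miR-363 to miR-25 was 1.66 and 2.18, so miR-363 was there the more abundant of these seed relatives. In CMT-12 it was 0.00323, from 1 read. CMT-12 also had the largest shares of miR-25 (3821 ppm) and miR-92a (18647), and the largest sum of 5 blood cell markers, 1159 ppm against 4.95 to 303 in the other libraries. Of those markers miR-223 was at the floor and the other 4, miR-451 and miR-144 of red cells among them, were above it in CMT-12. The sum of the 4 liver and muscle markers was also largest there, at 97710 ppm against 89.8 to 14958 elsewhere. Nearly all of that sum was miR-122 of the liver, with a signal of 18358 of a summed 18383. The muscle markers were low in CMT-12, with miR-1 at 25.5 against 25.1 to 1060 elsewhere, and miR-133a and miR-206 at the floor. The part of the blood, liver and muscle markers in these shares was not tested.

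**Figure D5:**
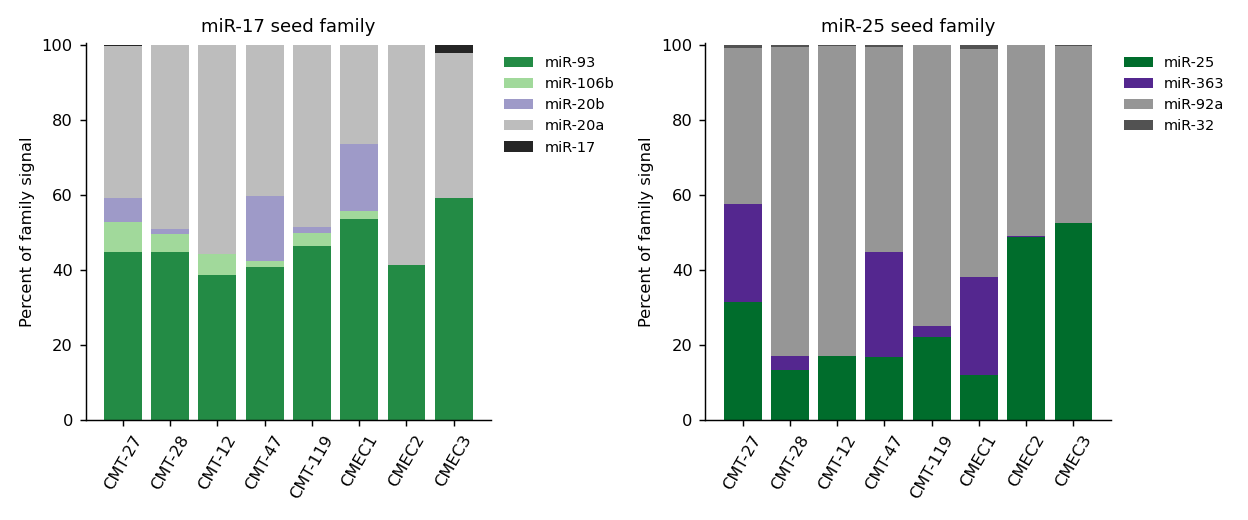
Percent of the signal of the miR-17 seed family (left) and the miR-25 seed family (right) given by each miRNA in each library (stacked bars, 0 to 100%), with members of the miR-106b-25 cluster in green, those of the miR-106a-363 cluster in purple and other miRNAs in grey to black. miR-363 reaches 26.1% to 27.9% in CMT-27, CMT-47 and CMEC1 and at most 3.68% in the other libraries.

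Of 10 related miRNAs outside the members, 7 were tested and 0 passed the limma threshold. All 7 differences were positive as deposited, miR-17 turning negative under each rescaling, and 2 had an unadjusted p under 0.05. These were miR-18a, at 2.55 ± 0.95 (limma adjusted p = 0.385), and miR-20a, at 2.31 ± 1.06 (limma adjusted p = 0.444). For miR-18a, miR-19a, miR-19b and miR-20a every CMT line was above every CMEC sample as deposited, as for 7.77% of all tested miRNAs. After median centring the separation held for miR-18a and miR-20a. After quantile normalisation, with limma-voom on recovered reads and on shares it held only for miR-18a. The count of 0 for miR-18a in CMEC2 allows up to 34.9 ppm, above its 6.70 ppm in CMT-47. miR-20a, for example, ran from 167 to 1553 in CMT and from 49.9 to 119 in CMEC. miR-92a, which shares the seed of miR-25, was at 1.11 ± 0.88 (limma adjusted p = 0.594). miR-18b, miR-92b and miR-367 were above the floor in too few libraries or in none.

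Across the 8 libraries, with each library's median removed, the tested miRNA most like the mean of the miR-106b-25 members was miR-20a (Pearson r = 0.88, Spearman rho = 0.76, n = 8), followed by miR-18a (r = 0.87, rho = 0.88) and miR-185 (r = 0.85, rho = 0.88). On this scale the mean hides a split, since miR-106b and miR-93 varied together (r = 0.88, rho = 0.95). miR-25 went the other way from miR-106b (r = -0.57, rho = -0.48) and from miR-93 (r = -0.66, rho = -0.50). These signs are for values with the medians removed. As deposited, CMT-27 was highest for miR-106b, miR-93 and miR-25 alike. For the miR-106a-363 members the most alike by Pearson r were miR-135b (r = 0.83, rho = 0.62), miR-374b (r = 0.81, rho = 0.83) and miR-221 (r = 0.80, rho = 0.88), in the opposite order by rho. miR-135b was at 910 in CMT-27 and at most 55.5 elsewhere. miR-221 was at 5180 in CMT-27, 4568 in CMT-47 and 4934 in CMEC1 and at most 1259 in the other libraries. miR-20b and miR-363 had r = 0.97 with each other and 0.13 to 0.34 with miR-106b and miR-93. All these miRNAs share the 8 libraries and their depth, and the correlations are given as descriptions.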

How the data were processed

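Small RNA of exosomes was sequenced in 5 CMT and 3 CMEC libraries, with single reads of 50 bases from 500 ng of RNA per the labels' protocols. The authors deposited a normalised signal for 511 loci of mature miRNAs. Per the submitters' processing notes the build was canFam 3. Aligner, counting method and normalisation: not given in the sources used here. Where a miRNA had several loci (45 miRNAs), that of highest mean stood for it, leaving 452. Values above the floor of 1 were divided by the step of the library, which gave whole numbers within 0.05 steps for 98.5% to 100% of the values. 1 read was worth 0.386 in CMT-28 to 2.83 in CMEC2. Values at the floor were taken as 0 reads, although up to 2 reads in CMT-28 and 1 read in CMT-27, CMT-47 and CMT-119 would fall under it. All pairs of libraries differed beyond sampling noise (lowest chi-square per degree of freedom 92.7, for CMEC2 with CMEC3). The next lowest was 428, for CMT-47 with CMT-119. CMEC1 was at 433 with CMT-119, and at 1039 with CMEC2 and 1512 with CMEC3. CMEC2 and CMEC3 were thus the most alike pair, and each was counted as a separate sample in every test.

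miRNAs above the floor in at least 3 libraries, 193 in all, were fitted as log2(signal + 1) with limma 3.58.1 in R 4.3.3 (eBayes with an intensity trend), coded CMT minus CMEC, with Benjamini-Hochberg adjustment over all of them. The added 1 understates changes of low miRNAs. A value at the floor of 1 can instead overstate a difference, since a count of 0 in CMEC2 allows a signal of up to 8.50. The fit was tested on simulated data with normally distributed noise, without the floor or differences in depth. That test therefore does not cover miRNAs near the floor. Shares counted values at the floor as 0. Limits for a count of 0 are 3 reads. The members, related miRNAs, seed families and marker lists were chosen with earlier results of these data known. miRNAs named are the members, 10 related miRNAs, the markers, and per cluster the 3 tested miRNAs with the highest Pearson r to the members' mean. Mature sequences are not shown.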

Additional observations from a re-analysis of the deposited data

Results flagged for a closer look

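The log2 signal of miR-93 in CMT-27 was 10.75, and the next CMT line, CMT-28, had 8.04, so that CMT-27 lay far from the other 4 lines. This gap was 0.809 of the range of the 5 lines. Of 10 results screened in this way, the log2 signals and shares of the 5 tested members, it was the 1 found. Chance alone flags about 1 in 20 results, so 1 found among 10 is not unusual. The signal and the share of a member are also not independent. As a share of the library's summed signal miR-93 did not stand apart, with 1766 ppm in CMT-27 and 1257 in CMT-12. Groups of 3, such as CMEC, were not screened.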

How the results depend on the processing

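No member passed the threshold in any of 18 alternatives to the limma fit. These were other pseudocounts, filters, scalings, weights and locus sums, no trend, each library left out, and limma-voom on recovered reads, which was added after the data were seen. limma called 0 miRNAs in these, of 105 to 241 tested, except 15 of 193 with sample weights and 6 of 178 without CMEC1 (range 0 to 6 with a library left out). The lowest limma adjusted p of a member was 0.0772, for miR-106b and for miR-363 with sample weights. Where a miRNA had to be above the floor in all 8 libraries, miR-106b, miR-20b and miR-363 were not tested. miR-106b, miR-93, miR-20b and miR-363 were positive throughout. The size for miR-106b, which was at the floor in CMEC2 and CMEC3, followed the pseudocount, at 1.81 with 10 and 3.79 with 0.1. miR-25 was negative after median centring (-0.74), quantile normalisation (-0.80), with sample weights (-0.63) and with voom (-0.22), and ran from -0.45 to 0.59 with a library left out. miR-17, near the floor, was likewise at -0.51, -0.29, -0.39 and -1.39. The difference in share, CMT minus CMEC, was -17.8 ppm for miR-25 and 466 with miR-21 left out of the total. With a library left out it ran from -594 to 487 for miR-25, from -28.1 to 74.8 for miR-20b and from -95.6 to 768 for miR-363. The cause was not tested. edgeR, DESeq2 and TMM scaling were not run, because too few of the deposited low values, floor included, are whole multiples of 1 step. No paired analysis was possible because the labels give no batch, donor or pairing that ties a CMT line to a CMEC sample. The depth of CMT-12 and CMEC2 limits miRNAs under about 8.50, which are at most 3 reads in CMEC2.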
